A study of Homo sapiens with 10 samples.

Results

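The genes described here are 42 genes of the type I interferon response, followed across the control, ETV1 and ERG-labelled arrays of the study. They were chosen by name, as a list of sensors, signalling factors and antiviral effectors, and a probe set was counted where the array annotation gave it that gene alone. In all, 72 of the 41091 probe sets that name 1 gene, or 41 of 19775 genes, fell under this rule. STAT2 was matched to no probe set of its own and is not analysed here. All 41 genes, and 69 of the 72 probe sets, passed the filter on dim values, which keeps a probe set brighter than the median probe set on 3 or more of the arrays. Every tested member gene, read from its brightest probe set, exceeded the median on at least 1 array of each group, so none was tested only through a group where it was high. Dimmer tested probe sets of EPSTI1, OAS3 and SAMD9L did not meet this.

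The data are 10 Affymetrix arrays (HG-U133 Plus 2.0), each hybridised with RNA of RWPE-1 cells, a non-tumorigenic, immortalised line of human prostate epithelium. Every group carried an MSCV retrovirus, was selected as stable clones under normal growth conditions and expressed BirA, a bacterial biotin ligase. The control group expressed BirA alone (3 arrays), and the other groups expressed BirA with ETV1 (4 arrays) or BirA with ERG (3 arrays), ETS transcription factors that gene fusions activate in prostate cancer. No interferon or virus other than the vector is named in the labels. The labels do not say how many clones or cultures the arrays of a group came from, so the p-values below rest on the spread among these arrays only, and some of it may be technical.

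Type I interferons are secreted proteins that cells release when sensors find foreign or misplaced nucleic acid. They bind the receptor IFNAR1 and IFNAR2, whose kinases JAK1 and TYK2 switch on a transcription factor complex that holds STAT2 and IRF9 and binds interferon-stimulated response elements in the promoters of the genes described here. The products degrade RNA, block translation, trap virions and feed back on the pathway, and epithelial cells keep a low level of many of them without infection.

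The ERG-labelled arrays stood apart from the other arrays. Spearman correlations over all probe sets were 0.766 to 0.811 between ERG-labelled and control arrays and 0.956 to 0.969 between ETV1 and control arrays. The median intensity was 48.5 to 52.5 on the ERG-labelled, 71.3 to 73.4 on the control and 70.9 to 75.5 on the ETV1 arrays. For ACTB, the probe set at the 3' end divided by that at the 5' end, a measure of RNA integrity, gave 2.75 to 3.07, 1.35 to 1.40 and 1.24 to 1.30 in that order. The same ratio for GAPDH did not set these arrays apart, at 0.946 to 1.045, 0.893 to 0.931 and 0.994 to 1.05. Among all genes with more than 1 tested probe set, 37.6% had probe sets that passed in opposite directions between ERG-labelled and control arrays, against 0.69% between ETV1 and control arrays. The brightest probe set of ERG itself fell on the arrays labelled with it, from 186 ± 4.61 (SD, n = 3) to 9.43 ± 1.57 (n = 3). Its other probe sets did not pass the dim filter and had higher means there. These were 9.04, 25.45 and 17.2 on the control and 36.5, 33.5 and 26.35 on the ERG-labelled arrays, with only the first free of overlap. The probe sets disagree, so these arrays are named by their label only. ETV1 rose in the ETV1 cells, from 88.1 ± 29.0 to 1320.0 ± 355 (n = 4). Of 8 basal epithelial markers 7 were measured, all above the dim filter, with KRT5 at 5212 ± 194, 5876 ± 426 and 11270.0 ± 156 and KRT14 at 8612 ± 596, 11470.0 ± 379.7 and 10220.0 ± 1023 in control, ETV1 and ERG-labelled arrays. Levels within this list differed between groups, with EPCAM lower in ETV1 (-0.89) and ITGB4 lower on the ERG-labelled arrays (-0.49).

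Promoters of 34 members were found in the RefSeq promoter table (GRCh38.p14), and 22 of these genes held the core of the interferon-stimulated response element within the 250 bases before a transcript start. The core was searched on both strands as GAAA, any 2 bases and GAAA again, and copies may overlap. IFIT2, MX2, DHX58, IRF7, OASL, TRIM22, OAS2 and USP18 were not matched. By window, 25 of 46 member windows (54.3%) held it, against 1061 of all 35116 windows of this length (3.02%). The promoters of 7 genes, each as the 160 bases before the start on the gene's own strand, show how the element sits in genes with different readings below. In the first 6 the capitals mark the response element core or its reverse complement, and in IRF1 they mark TTCNNNGAA, the pattern of the gamma-activated sequence.
IFI6 (chr1:27672193-27672352, minus strand): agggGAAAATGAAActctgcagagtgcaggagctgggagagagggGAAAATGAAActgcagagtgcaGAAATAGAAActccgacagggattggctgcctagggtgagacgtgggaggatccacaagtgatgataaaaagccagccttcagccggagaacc
ISG15 (chr1:1013337-1013496, plus strand): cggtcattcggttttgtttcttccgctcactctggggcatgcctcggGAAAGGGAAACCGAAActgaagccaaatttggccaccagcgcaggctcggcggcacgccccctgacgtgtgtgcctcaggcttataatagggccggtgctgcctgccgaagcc
ISG20 (chr15:88638856-88639015, plus strand): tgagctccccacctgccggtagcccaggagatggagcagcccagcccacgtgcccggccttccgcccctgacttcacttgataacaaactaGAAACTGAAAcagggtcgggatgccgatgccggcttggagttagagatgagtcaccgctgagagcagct
EPSTI1 (chr13:42992242-42992401, minus strand): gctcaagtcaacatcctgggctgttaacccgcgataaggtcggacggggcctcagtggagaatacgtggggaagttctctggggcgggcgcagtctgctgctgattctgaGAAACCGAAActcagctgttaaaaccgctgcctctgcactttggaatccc
IFIT1 (chr10:89392463-89392622, plus strand): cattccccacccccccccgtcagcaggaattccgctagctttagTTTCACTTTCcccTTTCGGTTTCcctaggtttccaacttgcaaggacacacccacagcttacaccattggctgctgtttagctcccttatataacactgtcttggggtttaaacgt
BST2 (chr19:17405631-17405790, minus strand): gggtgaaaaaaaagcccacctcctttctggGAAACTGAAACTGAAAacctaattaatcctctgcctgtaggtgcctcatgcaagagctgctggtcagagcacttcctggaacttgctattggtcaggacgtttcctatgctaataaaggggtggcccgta
IRF1 (chr5:132490774-132490933, minus strand): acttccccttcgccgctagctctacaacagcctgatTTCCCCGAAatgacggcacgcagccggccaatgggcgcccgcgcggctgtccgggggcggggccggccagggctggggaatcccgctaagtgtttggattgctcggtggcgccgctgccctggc
IFI6 carries 3 copies, at -156, -115 and -93 from the start, while ISG15 and BST2 each carry a pair of overlapping copies, and IFIT1 carries 2 on the opposite strand. ISG20 and EPSTI1 carry 1 copy each, at -69 and -50. IRF1 has no such core in the whole window. TTCNNNGAA, which reads the same on both strands, was found in 13 of the 46 member windows (28.3%) and in 6.57% of all windows. The ETS sequence CCGGAAGT, searched on both strands, was found in no member window and in 3.42% of all windows. These 2 patterns were added after the data were seen. A match is a stretch of letters and does not show that a factor bound there.

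**Figure D1:**
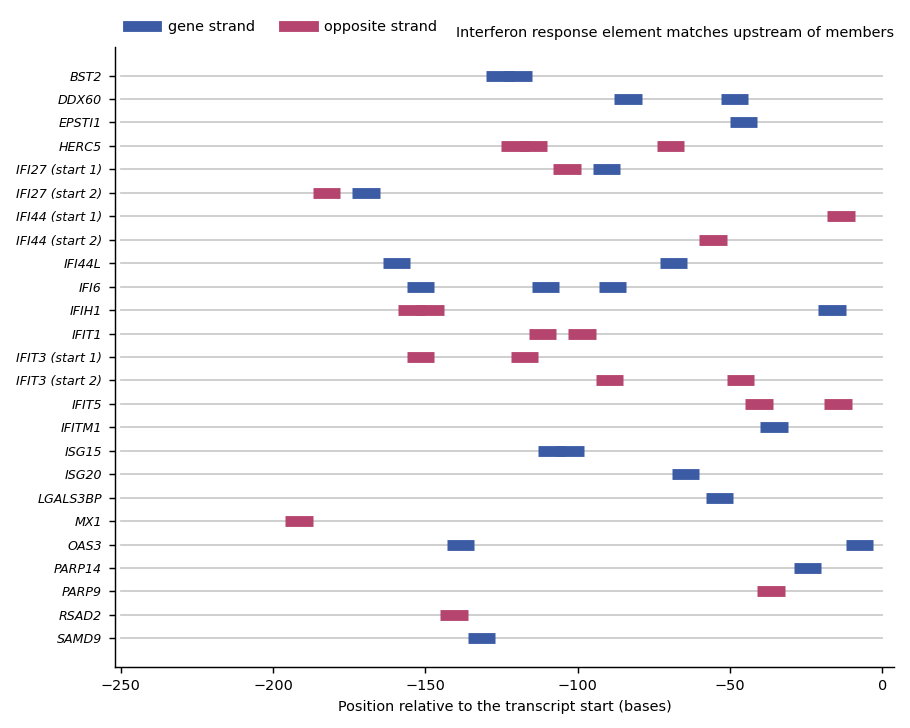
Positions of the response element core in the 250 bases before the transcript start (x axis, bases) of each member window that holds one, with matches on the gene's strand and the opposite strand in different colours. Of the 25 windows drawn, all but 1 window of IFI27 and those of IFI44L and MX1 hold every match within the last 160 bases, and overlapping copies appear as a longer block, as in ISG15 and BST2.

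In ETV1 cells 18 of the 41 member genes rose and 1 fell against control, each gene read from its brightest probe set. That is 43.9% higher and 2.44% lower, where 9.32% of all 14069 tested genes were higher and 15.9% lower. A gene counts as higher or lower where limma's p, adjusted over all tested genes after Benjamini and Hochberg, is under 0.05, and all changes are on the log2(intensity + 16) scale. The median log2 fold change was 0.35 over the members and -0.06 over all tested genes. At least 2-fold rises, a log2 fold change of 1 or more, were seen in 9 members, against 2.36% of all genes. The arrays of the groups did not overlap, with ETV1 above control, for 17 members and 13.2% of all genes, and with ETV1 below control for none of the members and 20.8% of all genes. In RNA of whole cultures a smaller share of expressing cells and less RNA per cell cannot be told apart. Without control array C, on which most members read lowest, 14 members rose, and without ETV1 array B 15 rose. A probe set for the 18S ribosomal RNA read 79.4 to 159 on the control, 276 to 874 on the ETV1 and 834 to 1103 on the ERG-labelled arrays, and its part in these results was not tested.

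Among the sensors of foreign nucleic acid, 5 of 9 rose in ETV1 cells and none fell, where 9.32% and 15.9% of all tested genes did. At an unadjusted limma p under 0.05 no sensor fell either. OAS2, an oligoadenylate synthetase that responds to double-stranded RNA, read 471, 566 and 319.9 on control arrays A, B and C and 1672, 2131, 1798 and 2380.0 on ETV1 arrays A, B, C and D. Every ETV1 array exceeded all control arrays, and the log2 fold change was 2.13 (SE 0.19, limma adjusted p = 8.27e-07). OAS2 was the largest rise of the members here. DHX58, a helicase that tunes the RNA sensors, rose by 0.76 (SE 0.18, limma adjusted p = 0.00481), with control arrays at 135 to 252 and ETV1 arrays at 296 to 402. OAS3 rose by 0.66 and did not pass with the mean of its probe sets (0.35). The helicase DDX60 rose by 0.62 but lost its call without control array C (0.37) or ETV1 array B (0.56). OASL, a synthetase relative that binds RNA and RIGI, rose by 0.61, a call that was lost under many alternatives. It did not hold without control array A (0.71) or C (0.39), or without ETV1 array A (0.61), B (0.51) or C (0.56). Nor did it pass with the mean of its probe sets (0.47), with a pseudocount of 1 (0.61) or with no dim filter (limma adjusted p = 0.0856). The RNA helicase IFIH1, the DNA sensor IFI16, the kinase EIF2AK2, which halts translation, and OAS1 differed by 0.16, 0.03, -0.05 and 0.21 and did not pass.

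The signalling factors, counted here together with ISG15, HERC5, HERC6, PARP9, PARP14 and SP110, moved least in ETV1 cells. Of these 10 genes 2 were higher and none lower, where 9.32% and 15.9% of all tested genes were. The median log2 fold change was 0.21, against -0.06 over all tested genes. ISG15, a ubiquitin-like modifier that cells attach to proteins, read 8866, 9024 and 7942 on the control and 14428, 13795, 13686 and 13523 on the ETV1 arrays. It was bright everywhere, its groups did not overlap, and it rose by 0.69 (SE 0.12, limma adjusted p = 0.00049). HERC6 rose by 0.52 but lost its call without control array C (0.32) or ETV1 array B (0.51) or D (0.46), with the replicate block (0.46), with the mean of its probe sets (0.19) and with no dim filter (limma adjusted p = 0.0517). HERC5, the ligase that attaches ISG15, differed by 0.23 (limma adjusted p = 0.38). IRF1, a transcription factor of interferon and inflammatory genes, read 760.2, 799 and 531 on the control and 687, 658, 662 and 655 on the ETV1 arrays. The ETV1 arrays lay within the range of the controls, with a difference of -0.04 (limma adjusted p = 0.869). IRF7, which amplifies interferon transcription, read 4905, 4815 and 4215 and 4841, 4780.2, 4576 and 4529.9, a difference of 0.01 (limma adjusted p = 0.955). The DNA-binding partner IRF9 read 2311, 2169 and 1611 and 2211, 2678, 2403 and 2398, so the groups overlapped, with a difference of 0.27 (limma adjusted p = 0.188). After quantile normalization of the arrays IRF9 passed, at 0.44. USP18, which removes ISG15 and damps the receptor, read 161, 156 and 103 and 167, 172, 152 and 255, with ETV1 array D highest, and differed by 0.37 (limma adjusted p = 0.143). PARP9, PARP14 and SP110 differed by 0.20, -0.06 and -0.01 and did not pass.

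Antiviral effectors divided in ETV1 cells, with 7 of 14 higher, 1 lower and 6 that did not pass. Of all tested genes 9.32% were higher and 15.9% lower. RSAD2, which makes a chain-terminating nucleotide against viral polymerases, read 353, 376 and 229 on the control and 1133, 1256, 1207 and 1722 on the ETV1 arrays, a rise of 2.02 (SE 0.19, limma adjusted p = 1.22e-06). CMPK2, its neighbour gene and a nucleotide kinase, read 925, 947 and 509 and 1274, 1451, 1277 and 2227 and rose by 0.97 (SE 0.22). For both genes ETV1 array D was the highest array and no ETV1 array fell to the level of the controls. ISG20, an exonuclease that degrades single-stranded RNA, read 399.8, 353 and 283 and 1509, 1755, 1629 and 637, so array D was the lowest there, and still above the controls. Its rise was 1.87 (SE 0.26, limma adjusted p = 6.28e-05). The dynamin-like GTPase MX2 rose by 1.40, IFITM1, which stops virus entry at membranes, by 1.27, and the ubiquitin ligase TRIM22 by 1.17. The growth-suppressing effector SAMD9 rose by 0.64 but lost its call without control array C (0.44).

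The IFIT genes, RNA-binding proteins that block translation of foreign RNA and classic interferon targets, were not among the genes that rose in ETV1 cells. IFIT1 read 4375, 4373 and 2814 on the control and 2827, 3304, 3021 and 5271 on the ETV1 arrays, where array D exceeded all controls and the other 3 arrays lay within them. It differed by -0.11 (limma adjusted p = 0.74), and IFIT2, IFIT3 and IFIT5 differed by -0.14, 0.37 and -0.13. MX1, the paralogue of MX2, differed by 0.28 (limma adjusted p = 0.224), and passed after quantile normalization at 0.46. SAMD9L read 271, 292 and 331 and 243, 331, 262 and 323, with full overlap and a difference of -0.04. BST2, which tethers budding virions to the surface, went the other way. It read 1354, 1352 and 888 on the control and 625, 767, 684 and 1049.5 on the ETV1 arrays and fell by 0.61 on the log2 scale (SE 0.20, limma adjusted p = 0.0309), while ETV1 array D lay above control array C. The call of BST2 was lost without control array A (-0.51) or B (-0.51), without ETV1 array A (-0.51), B (-0.61) or C (-0.56), after quantile normalization (-0.54), with a pseudocount of 1 (-0.62) or with no dim filter (limma adjusted p = 0.0705).

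Of the 8 remaining members, whose antiviral roles are less settled, 4 rose in ETV1 cells and none fell, where 9.32% and 15.9% of all tested genes did. At an unadjusted limma p under 0.05 none of the 8 fell either. IFI6, a mitochondrial and endoplasmic reticulum protein that limits cell death and flavivirus replication, read 1157, 1200.1 and 744 on the control and 3327, 3036, 2592 and 4219 on the ETV1 arrays, a rise of 1.66 (SE 0.18, limma adjusted p = 6e-06). EPSTI1 read 329.8, 352 and 264 and 993, 1164, 1114 and 848, a rise of 1.66 (SE 0.15, limma adjusted p = 7e-07). In both genes the lowest ETV1 array exceeded the highest control array. XAF1, which opposes a caspase inhibitor, read 475, 464 and 311 and 790.0, 1081, 934 and 1254 and rose by 1.26 (SE 0.17). The other tested probe sets of XAF1 differed by -0.27 and 0.23 and did not pass. IFI27, a mitochondrial relative of IFI6, rose by 0.84 (SE 0.14). IFI35, IFI44, IFI44L and the secreted glycoprotein LGALS3BP differed by 0.18, 0.24, 0.35 and -0.16 and did not pass. By promoter, the response element core was found for 10 of the 13 risen members that have a window (76.9%) and for 11 of the 19 that did not pass (57.9%), a description without a test.

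**Figure D2:**
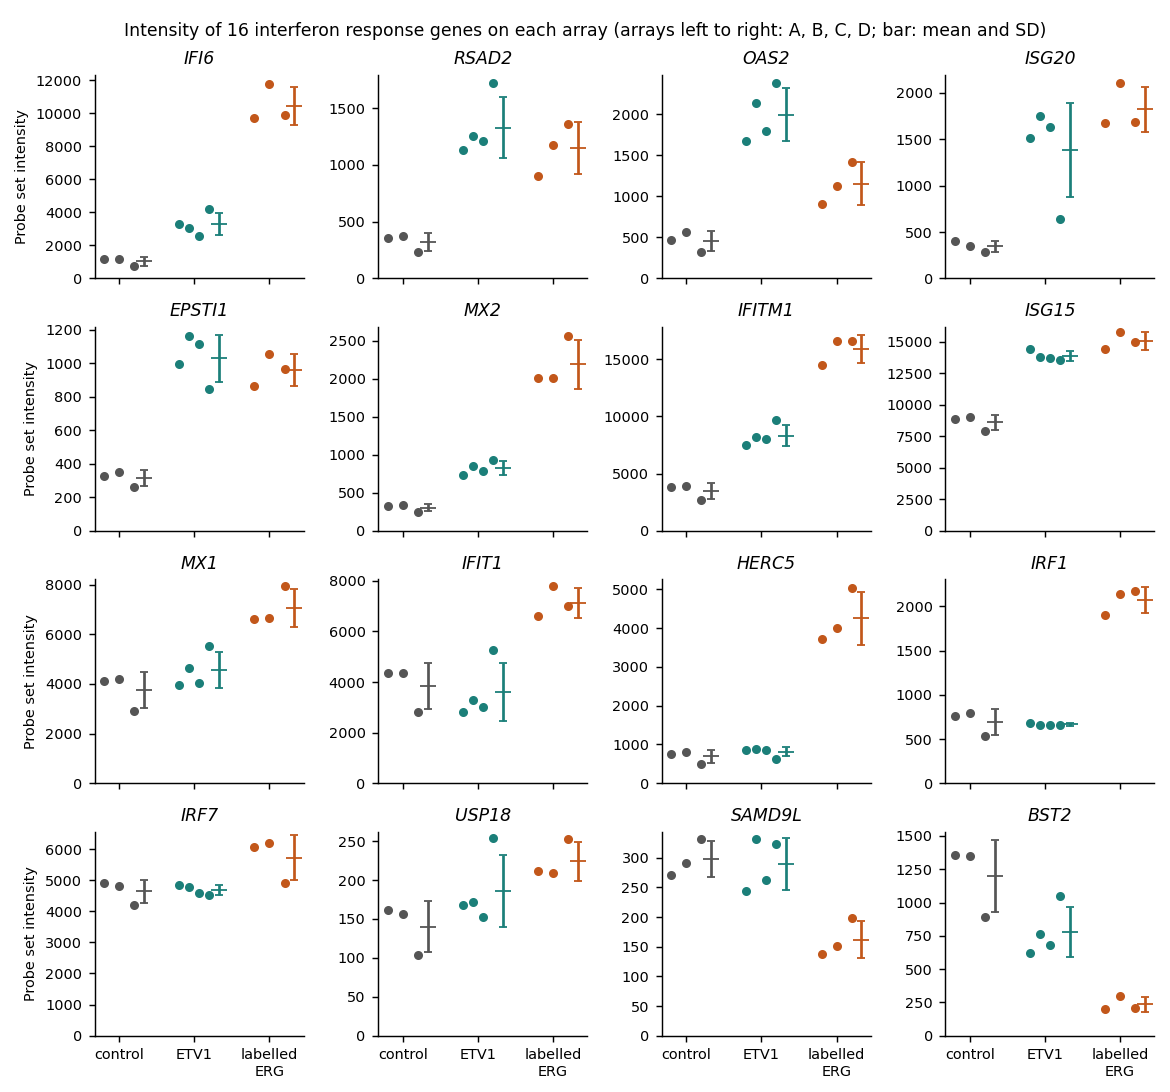
Probe set intensity (y axis, linear, from 0) of 16 members on each control, ETV1 and ERG-labelled array, with arrays A to D from left to right and a bar for the mean and SD of each group. RSAD2, OAS2 and EPSTI1 lie above all controls in both ETV1 and ERG-labelled arrays, HERC5 and IRF1 lie above the controls in the ERG-labelled arrays while the ETV1 arrays overlap the controls, and BST2 is lowest in the ERG-labelled arrays.

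On the ERG-labelled arrays 34 of the 41 member genes rose and 2 fell against control, or 82.9% and 4.88%. Of all tested genes 48.0% were higher and 32.3% lower, so a rise alone is common on these arrays. At least 2-fold rises were seen in 20 members, against 22.7% of all genes. The arrays did not overlap, with ERG-labelled above control, for 33 members and 47.2% of all genes, and with ERG-labelled below control for 2 members and 31.6% of all genes. The median log2 fold change was 0.99 over the members and 0.30 over all tested genes, so the members lay 0.69 above the middle of the array. After quantile normalization the medians were 0.55 and 0.06, and 27 members rose and 5 fell, where 39.9% and 36.2% of all genes did. After median centring they were 1.40 and 0.71, and 39 rose and 2 fell, where 60.7% and 24.9% of all genes did.

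Sensors rose in 7 of 9 cases on the ERG-labelled arrays, where 48.0% of all tested genes rose. DDX60 rose by 1.84 (SE 0.20), IFI16 by 1.58 and OASL by 1.49, and OAS2, OAS1, IFIH1 and OAS3 by 1.33, 1.13, 0.99 and 0.80. IFIH1 did not pass with the mean of its probe sets (0.11), and OAS3 did not after quantile normalization (0.26). DHX58, raised in ETV1 cells, read 171, 226 and 191 here and differed from control by 0.04 (limma adjusted p = 0.861). EIF2AK2 read 2838, 2663 and 1993 on the control and 3174, 2624 and 3979 on the ERG-labelled arrays, a difference of 0.38 (limma adjusted p = 0.0559). It passed upward under 6 alternatives, among them median centring (0.78) and leaving out control array A (0.48), and downward after quantile normalization (-0.69). Of its other probe sets, 1 changed by -1.26 and passed downward, and the last differed by -0.10 and did not pass.

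Among the signalling factors 8 of 10 rose on the ERG-labelled arrays, where 48.0% of all tested genes rose. HERC5 read 767, 815 and 508 on the control, 860.5, 883, 866 and 632 on the ETV1 and 3727, 4001 and 5032 on the ERG-labelled arrays, a rise of 2.60 over control (SE 0.19, limma adjusted p = 2.24e-09). Each ERG-labelled array was far brighter than every other array. IRF1 read 1904, 2143 and 2175 and rose by 1.57 (SE 0.15, limma adjusted p = 7.98e-08), again apart from the other groups. The other transcription factors differed less. IRF9 read 2823, 3075 and 2833 and rose by 0.53, but after quantile normalization it differed by -0.09 and did not pass. IRF7 read 6077, 6197 and 4893, with array C within the range of the controls, and differed by 0.30 (limma adjusted p = 0.0592). It passed upward under 6 alternatives, among them median centring (0.70) and leaving out ERG-labelled array C (0.40), and downward after quantile normalization (-0.30), so its direction was not settled. USP18 read 211, 209 and 253 and rose by 0.64 (SE 0.19). PARP9, HERC6, ISG15 and SP110 rose by 0.99, 0.91, 0.80 and 0.53, and PARP14 differed by 0.31 (limma adjusted p = 0.25). With the mean of their probe sets SP110 (0.24) and HERC6 (0.05) did not pass, nor did SP110 after quantile normalization (0.08), nor PARP9 with unsuffixed probe sets alone (0.05).

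All 14 effectors passed on the ERG-labelled arrays, 12 upward and 2 downward, where 48.0% and 32.3% of all tested genes did. MX2 read 325, 336 and 252 on the control, 729.5, 855, 782 and 938 on the ETV1 and 2004, 2011 and 2566 on the ERG-labelled arrays, a rise of 2.79 (SE 0.16, limma adjusted p = 1.2e-10). CMPK2 read 3758, 4214 and 4819, a rise of 2.45 (SE 0.23, limma adjusted p = 5.5e-08). The levels of both genes formed steps, with no overlap between control, ETV1 and ERG-labelled arrays. ISG20, IFITM1, TRIM22 and RSAD2 rose by 2.35, 2.21, 2.13 and 1.80. The IFIT genes and MX1, which had not passed in ETV1 cells, rose too, IFIT3 by 1.52, IFIT5 by 1.10, IFIT2 by 0.99, IFIT1 by 0.91 and MX1 by 0.93. IFIT1 and IFIT2 did not pass after quantile normalization (0.30 and 0.36), nor IFIT2 with the mean of its probe sets (0.28). SAMD9 rose by 0.53 but did not pass after quantile normalization (0.10) or without control array C (0.33) or ERG-labelled array C (0.38).

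BST2 fell furthest of the members on the ERG-labelled arrays, where it read 197, 299 and 211, below every control and ETV1 array. The log2 fold change was -2.27 (SE 0.21, limma adjusted p = 3.95e-08). It is 1 of the 22 members with the response element core before the start, as the overlapping pair printed above. SAMD9L read 137, 151 and 198 against 271, 292 and 331 on the control arrays, without overlap, a change of -0.83 (SE 0.16). That fall was read from the brightest of its 3 probe sets. Another, which passed the dim filter only through the control and ETV1 arrays, fell by 0.63 on the log2 scale, and the last rose by 0.37. The last one stood for the gene without control array C (0.30) or without ETV1 array B (0.37), and the sign turned.

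Of the 8 remaining members 7 rose on the ERG-labelled arrays, where 48.0% of all tested genes rose. IFI6 read 9736, 11802 and 9874, a rise of 3.35 over control (SE 0.20, limma adjusted p = 1.78e-10), the largest of all members. XAF1 read 2372, 2403 and 2816, a rise of 2.58 (SE 0.19, limma adjusted p = 2.1e-09). IFI27 rose by 2.25, EPSTI1 by 1.57, IFI44 by 1.32 and IFI35 by 0.82. IFI44 did not pass with the mean of its probe sets (0.39) and turned to -0.54 with unsuffixed probe sets alone. IFI44L rose by 0.80 but lost its call without control array C (0.49) or ERG-labelled array C (0.51), or after quantile normalization (0.23). LGALS3BP differed by 0.06 (limma adjusted p = 0.751), and passed downward after quantile normalization (-0.55) and upward after median centring (0.47), so its direction followed the scaling.

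**Figure D3:**
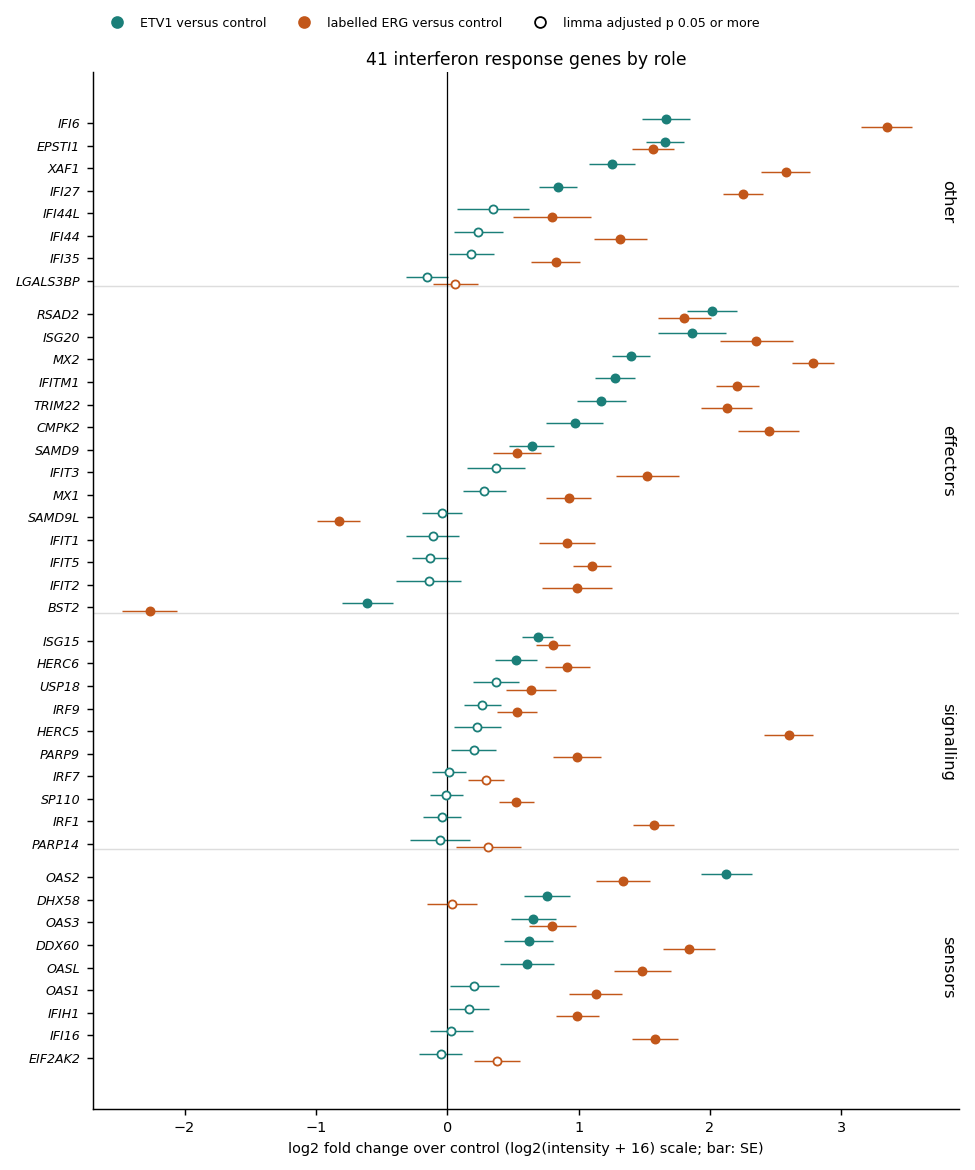
Log2 fold change over control (x axis, log2(intensity + 16) scale, with SE) of the 41 members grouped by role, for ETV1 and for ERG-labelled arrays, with open symbols where the limma adjusted p is 0.05 or more. In ETV1 the signalling genes lie between -0.06 and 0.69 and OAS2 and RSAD2 lie furthest right, while on the ERG-labelled arrays IFI6, MX2 and HERC5 lead and BST2 and SAMD9L lie left of 0.

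Both comparisons use the same 3 control arrays, so the ERG-labelled and ETV1 arrays were also compared directly. As deposited, 25 members were higher and 4 lower on the ERG-labelled arrays, or 61.0% and 9.76%, where 50.7% and 33.4% of all tested genes were. At least 2-fold differences upward were seen in 14 members and 28.2% of all genes. The arrays did not overlap, with ERG-labelled above ETV1, for 26 members and 50.0% of all genes, and the other way for 4 members and 32.4%. The medians were 0.64 over the members and 0.36 over all genes. After quantile normalization these medians were 0.14 and 0.08. The split was then 11 higher and 13 lower, where 43% and 37.5% of all tested genes were. After median centring 35 were higher and 2 lower, where 61.8% and 25.7% of all tested genes were. The count of direct differences thus follows the scaling, as do the shares of all tested genes. HERC5 (2.37, SE 0.18), IFI6 (1.68), IRF1 (1.61), IFI16 (1.55) and CMPK2 (1.48) were the largest of those higher on the ERG-labelled arrays. After quantile normalization they were at 1.69, 0.96, 1.01, 0.78 and 0.70 and still passed.

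The 4 members lower on the ERG-labelled than on the ETV1 arrays were BST2, OAS2, SAMD9L and DHX58. BST2 differed by -1.66 (SE 0.20, limma adjusted p = 5.37e-07). OAS2 read 909, 1130.0 and 1424 against the ETV1 values given above, without overlap, and differed by -0.79 (SE 0.19, limma adjusted p = 0.00109), but did not pass after median centring (-0.36) or with the mean of its probe sets (-0.29). DHX58 differed by -0.72 and likewise did not pass after median centring (-0.29). SAMD9L differed by -0.78 and turned to 0.22 and 0.23 without control array C and ETV1 array B. RSAD2, ISG15, ISG20, OAS3, EPSTI1 and SAMD9 rose in both comparisons with control and did not pass here, at -0.21, 0.12, 0.49, 0.15, -0.09 and -0.11. Each of the 6 passed under some alternative. After quantile normalization RSAD2 (-0.83), EPSTI1 (-0.66), SAMD9 (-0.70), OAS3 (-0.56) and ISG15 (-0.36) passed downward. After median centring ISG15 (0.55), ISG20 (0.92), OAS3 (0.57) and EPSTI1 (0.34) passed upward, as did ISG20 without ETV1 array B (0.63) or C (0.60). A further 10 members rose in both and were higher again on the ERG-labelled arrays, among them MX2 (1.39), XAF1 (1.32), IFI27 (1.41) and IFITM1 (0.93).

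Probe sets of the same gene can be set against each other for 20 members. Between ETV1 and control arrays no member had probe sets that passed in opposite directions, and all probe sets of ISG20, RSAD2 and SAMD9 passed upward. Those of EPSTI1 did too, but its dimmer one read 33.3 to 60.6 on the control arrays, below their medians. It passed the dim filter only through the other groups, so it adds no support, and the counts of probe sets hold it. Over all probe sets 23 of 69 members' probe sets rose and 1 fell in ETV1 cells, against 10.4% and 13.1% of all tested probe sets. On the ERG-labelled arrays 50 rose and 8 fell, against 43.3% and 35.1%. Between ERG-labelled and ETV1 arrays 36 were higher and 11 lower, against 45.6% and 36.5%. On the ERG-labelled arrays against control 10 of the 20 genes had every probe set passing upward, with 1150 of 6663 over all genes. Probe sets passed both ways for 4, which is 20.0%, with 37.6% over all genes. The 4 were OAS2, SAMD9, SAMD9L and SP110. The 10 hold EPSTI1 and OAS3, whose dimmer probe sets were below the median on all control arrays. That of OAS3 read 50.7 to 57.6 on the control and 92.3 to 106 on the ERG-labelled arrays. It passed the dim filter only through the latter, so neither adds support.

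OAS2 shows how far the reading depends on the probe set. Its brightest, given above, rose by 1.33 on the ERG-labelled arrays, and a second read 162, 202 and 170.0 on the control and 429, 442 and 439 on the ERG-labelled arrays, a rise of 1.23. The last of the 3 read 314, 310.5 and 225 and 145, 156 and 167 and changed by -0.79. In ETV1 cells the same probe sets differed by 2.13, 0.49 and 0.02, of which the last did not pass. SAMD9 rose by 0.53 in its brightest probe set and changed by -0.53 in the other, which read 312, 315 and 209.7 on the control and 184, 148 and 231 on the ERG-labelled arrays. The 3 probe sets of SAMD9L were at -0.83, -0.63 and 0.37, and all 3 passed. The one at -0.63 was below the median on all ERG-labelled arrays and passed the dim filter only through the control and ETV1 arrays. SP110, a nuclear body protein, had 5 probe sets. Those at 0.53, 0.70 and 0.96 passed upward and the one at -0.67 downward. Between the ERG-labelled and ETV1 arrays EIF2AK2 and IFIT2 joined OAS2 and SP110, with IFIT2 at 1.13 and -0.78 and EIF2AK2 at 0.43 and -1.42. The ERG-labelled arrays had an ACTB ratio of 2.75 to 3.07 and a GAPDH ratio of 0.946 to 1.045, within the span of the ETV1 and control arrays, and the part of RNA quality in these opposed readings was not tested.

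**Figure D4:**
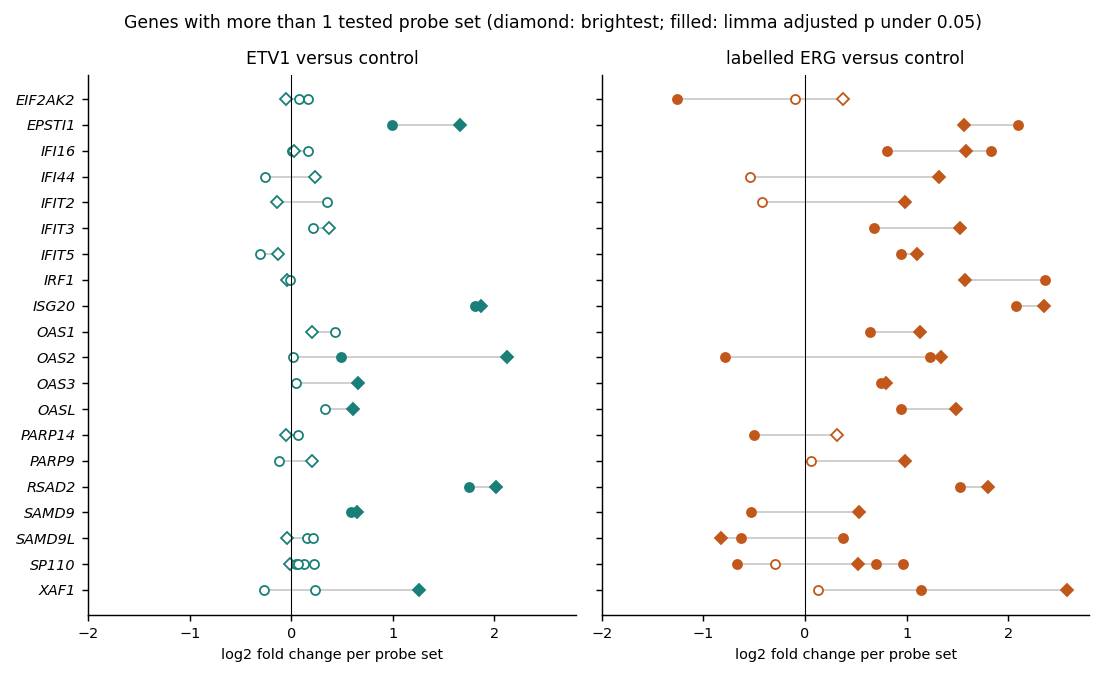
Log2 fold change over control (x axis) of every tested probe set of the 20 members with more than 1, for ETV1 on the left and ERG-labelled arrays on the right, with a diamond for the brightest probe set and filled symbols where the limma adjusted p is under 0.05. In ETV1 no filled symbols of a gene lie on both sides of 0, whereas on the ERG-labelled arrays OAS2, SAMD9, SAMD9L and SP110 have them on both sides.

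The arrays of 1 group differed in the level of the members as a whole. The mean log2 difference of the 41 genes from their control means was 0.17, 0.19 and -0.36 on control arrays A, B and C, against 0.11, 0.03 and -0.14 for all tested genes. On ETV1 arrays A, B, C and D it was 0.42, 0.60, 0.44 and 0.71, and on ERG-labelled arrays A, B and C 1.02, 1.19 and 1.31. Control replicate C was the lowest of all arrays and ETV1 array D the highest of its group, and the 3 groups did not overlap. By role, the sensors were at 0.44 to 0.70 on the ETV1 arrays and 0.94 to 1.20 on the ERG-labelled arrays, and the effectors at 0.49 to 0.88 and 0.99 to 1.35. The signalling factors were at 0.14 to 0.31 and 0.81 to 1.05. On the ETV1 arrays the signalling factors overlapped the control arrays, which ranged from -0.30 to 0.16 for that role.

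**Figure D5:**
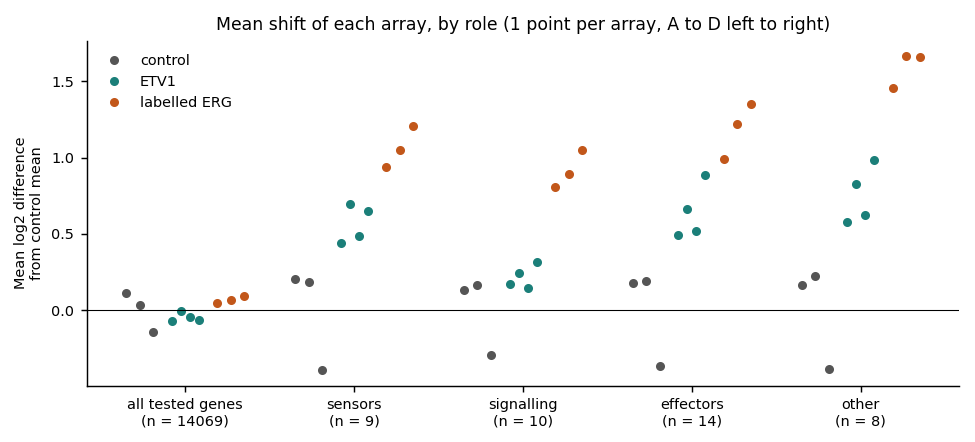
Mean difference from the control mean (y axis, log2(intensity + 16) scale) of all tested genes and of the members by role, with 1 point per array. Control replicate C lies lowest in every role, at -0.39 to -0.30, and the ERG-labelled arrays lie highest. Over all tested genes the array means stay between -0.14 and 0.11. The median over all tested genes, not drawn, was 0.26, 0.25 and 0.37 on ERG-labelled arrays A, B and C.

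The genes that send and receive the interferon signal were read from lists of pathway genes. Of 10 tested receptor and kinase genes none passed in ETV1 cells in limma (median -0.15), while 1 was higher and 3 lower at an unadjusted p under 0.05, and as many passed after quantile normalization. On the ERG-labelled arrays 5 rose and 1 fell, where 48.0% of all tested genes rose and 32.3% fell, so the share that rose was near that of all genes. IFNLR1, the receptor chain for lambda interferons, rose by 1.83, the interferon gamma receptor chain IFNGR2 from 1790.0 ± 241 to 3576 ± 258, and IFNAR2 by 0.90, and the receptor chain IFNAR1 fell from 225 ± 15.4 to 114 ± 19.0 (-0.90, SE 0.14). Of the ligands, IFNB1 was too dim to test and read 3.09, 5.88 and 10.9 on the control, 12.2, 2.16, 5.61 and 1.89 on the ETV1 and 65.5, 90.5 and 48.4 on the ERG-labelled arrays, so the ETV1 arrays stayed at the level of the controls and the ERG-labelled arrays lay above. IFNL1, a lambda interferon, read 20.4, 20.4 and 51.5 on the control, 39.7, 24.9, 22.6 and 12.1 on the ETV1 and 184, 230.2 and 169 on the ERG-labelled arrays, highest on the last. It passed the dim filter only through these arrays, so no test is given. IFNE, an interferon of epithelia, changed by -2.83 there, from 316 ± 28.7 to 34.6 ± 25.3.

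Upstream sensing genes went both ways. In ETV1 cells 2 of 11 rose and 4 fell, where 9.32% of all tested genes rose and 15.9% fell. RIGI, the RNA helicase that senses viral ends, rose by 0.73 and the DNA-sensing adaptor STING1 by 0.72, while CGAS changed by -0.76 and IRF3 by -0.71. On the ERG-labelled arrays 4 rose and 6 fell, beside the same 48.0% and 32.3% over all tested genes. RIGI rose by 1.81 and IKBKE by 1.56, and STING1 and IRF3 changed by -1.21 and -1.45. The other RIGI probe sets were at 0.02 and -0.51 on these arrays, of which the last passed downward, so RIGI too read both ways. The direct ERG-labelled versus ETV1 difference of STING1 was -1.94 (SE 0.13).

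Other interferon-induced genes, outside the members, were read from a list of 22. In ETV1 cells 7 of 19 tested rose and none fell (1 at an unadjusted p under 0.05 in limma), where 9.32% and 15.9% of all tested genes did. Among those that rose were CCL5 (0.73), IFITM2 (0.61) and PLSCR1 (0.56). The count holds the chemokine CXCL11, which read 37.5, 30.1 and 41.3 on the control and 226, 251, 237 and 130.2 on the ETV1 arrays. It was below the median on all control arrays and passed the dim filter only through the other groups, as did CXCL10, so for these the values stand without a test. On the ERG-labelled arrays 16 rose and 1 fell, where 48.0% and 32.3% of all tested genes did, with NMI at 2.01, GBP3 at 1.83 and TRIM5 at 1.54. The 19 genes tested there again include CXCL10 and CXCL11. They also include GBP2, above the median on 1 control, 1 ETV1 and 3 ERG-labelled arrays, which passed the dim filter only with the ERG-labelled arrays. Of the 9 with more than 1 tested probe set, PLSCR1, TRIM14 and WARS1 had probe sets passing both ways on these arrays. Antigen presentation genes carry peptides to the cell surface. In ETV1 cells 2 of 14 rose, the peptide transporter TAP1 (0.75) and HLA-E (0.43), where 9.32% of all tested genes did. On the ERG-labelled arrays all 14 rose, where 48.0% of all tested genes did. The immunoproteasome subunits PSMB9 (3.15) and PSMB10 (2.70) and TAP1 (2.41) came first. After quantile normalization 11 of the 14 rose and none fell on these arrays, where 39.9% and 36.2% of all tested genes did. Of the 9 with more than 1 tested probe set, 4 also had probe sets passing downward on the ERG-labelled arrays, ERAP1 (-2.96 at the lowest), ERAP2 (-1.79), TAP2 (-1.30) and TAPBP (-1.34), named here after their values were seen. Negative regulators were mixed, with 2 of 8 higher and 2 lower in ETV1 cells, where 9.32% and 15.9% of all tested genes were. On the ERG-labelled arrays 5 were higher and 1 lower, where 48.0% and 32.3% of all tested genes were. Among those higher, SOCS1 and SOCS3, feedback inhibitors of cytokine receptors, were below the median on all control arrays and passed the dim filter only through groups where they were high. SOCS3 exceeded the median on 4 ETV1 and 3 ERG-labelled arrays, so this limit also touches the ETV1 comparison. Of 4 negative regulators with more than 1 tested probe set, PTPN2 and TRAFD1 had probe sets passing both ways on the ERG-labelled arrays. Of 7 housekeeping genes 2 fell in ETV1 cells, where 15.9% of all tested genes did, and 4 rose on the ERG-labelled arrays, where 48.0% did. After quantile normalization 1 rose and 2 fell on the ERG-labelled arrays, where 39.9% and 36.2% of all tested genes did.

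Leukocyte markers were dim. The list had 5 of 7 genes measured, 1 of them above the dim filter (CD3E), and its summed intensity was 210.2 to 291 on the control, 224 to 249.6 on the ETV1 and 62.7 to 124 on the ERG-labelled arrays. PTPRC, the pan-leukocyte surface phosphatase, read 33.3 to 38.2, 19.2 to 42.4 and 14.6 to 28.8, and CD14 16.1 to 22.2, 3.31 to 25.6 and 21.5 to 39.3, below the array medians. Summed endothelial markers read 1444 to 1653, 1329 to 1492 and 177 to 207, and fibroblast markers 1003 to 1278, 1169 to 1219 and 255 to 351.4, in the same order. Only 2 of 4 endothelial and 2 of 7 fibroblast genes passed the dim filter, and 1 probe set of PECAM1 made up most of the endothelial sum. The sums were lower on the ERG-labelled arrays, but other tested probe sets of COL1A1 (0.87 and 0.63) rose there. Another probe set of DCN read 3.80 to 17.2 on the control and 64.8 to 81.9 on the ERG-labelled arrays. It passed the dim filter only through the latter, so no test is given. The part of other cell types in the members' levels was not tested.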

How the data were processed

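RNA of RWPE-1 cells was measured on 10 arrays, 3 control, 4 ETV1 and 3 labelled ERG. The deposited table of the authors holds 1 linear intensity per probe set and array, for 54675 probe sets, from 0.48 to 34142.15, with 12767 values at exactly 1. How they were summarised and scaled was not given in the sources used here, and no scaling was applied before adding 16 and taking log2. Genes were named from the platform annotation, where 41091 probe sets name 1 gene, 1801 several and 11721 none.

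A probe set was tested where it exceeded its array's median on 3 arrays or more, and a gene was read from its brightest such probe set that names it alone, by the mean over all arrays. One limma model (3.58.1, R 4.3.3) over the 3 groups, with 7 residual degrees of freedom, gave each comparison, with p-values adjusted after Benjamini and Hochberg over 14069 genes or 25969 probe sets. The code was tested on simulated data. The number of arrays limits the precision. No 2 arrays held identical values.

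Every member could be named. Values on each array are given for the 5 largest rises and falls past the threshold in each comparison with control, for IRF1, IRF7, IRF9 and USP18 and for every member that fell. Of members whose probe sets pass both ways, OAS2, SAMD9, SAMD9L and EIF2AK2 have such values for some probe sets. SP110 and IFIT2 have log2 fold changes only. Pathway genes named are those past the threshold, at most 4 per list and comparison by size, with ERG, ETV1, IFNB1, IFNAR1 and RIGI always named. Some others are named for the dim filter or for probe sets passing both ways. The members, the lists and the tests were chosen with earlier results of these data known.

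Alternatives changed the normalization, the filter, the pseudocount (1 and 64), the probe set rule, the model, the threshold (0.01), the replicate block and the arrays used.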

Additional observations from a re-analysis of the deposited data

Results flagged for a closer look

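Array D of the ETV1 group lay apart from the other ETV1 arrays for 2 of the 41 member genes, by the gap to its nearest neighbour as a share of the group's range, against Dixon's 95% critical value for 4 arrays. HERC5 read 632.19 there, the lowest of the group, where the other ETV1 arrays read 860.5, 883 and 866. IFIT3 read 5256.64 there, the highest of the group, where the others read 2813, 3133 and 2878. Chance alone puts about 1 in 20 groups past this value.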

How the results depend on the processing

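Each count of members was recomputed under 23 alternatives (22 for probe sets). The count of member genes past the threshold stayed within 1.5 times the reported one in all of them, at 14 to 28 for ETV1 versus control (19 as reported), 26 to 41 for ERG-labelled versus control (36) and 20 to 37 for ERG-labelled versus ETV1 (29). Leaving out 1 array at a time gave 15 to 19, 33 to 37 and 27 to 31 genes and 18 to 24, 55 to 60 and 45 to 50 probe sets. Counts of probe sets moved further in 2 cases, to 31 (47 as reported) between ERG-labelled and ETV1 arrays with unsuffixed probe sets alone, which leaves fewer probe sets, and to 40 (24) between ETV1 and control with array weights, whose estimation stopped before converging. With array weights 9835 of all genes passed between ETV1 and control, where 3553 passed as reported, and 9 members were lower. Over all genes 2274 passed without control array B and 1995 at 0.01, and the 75th percentile filter, which tests fewer genes, left 7221 where 11305 passed between ERG-labelled and control and 7636 where 11827 passed between ERG-labelled and ETV1 arrays. With the replicate block 18, 36 and 31 genes and 21, 58 and 50 probe sets passed. Arrays that share a replicate letter correlated at no more than 0.087 in their deviations from the group means. With so few arrays in a group, these correlations cannot decide whether the letters pair the arrays.

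After quantile normalization the sign turned between ERG-labelled and control arrays for IRF7 (-0.30), LGALS3BP (-0.55), EIF2AK2 (-0.695) and IRF9 (-0.086), and between ERG-labelled and ETV1 arrays for ISG15 (-0.36), MX1 (-0.14), IRF7 (-0.50), LGALS3BP (-0.57), EIF2AK2 (-0.93), IRF9 (-0.53), OAS3 (-0.56) and HERC6 (-0.21). EPSTI1 turned to 0.34 there after median centring and to 0.51 with the mean of probe sets, which also turned EIF2AK2 (-0.39), IFIH1 (-0.25) and HERC6 (-0.15), and SAMD9 against control (-0.001). Unsuffixed probe sets alone turned IFI44 to -0.54 against control and -0.29 against ETV1. Array weights turned IFI16 in ETV1 (-0.18) and LGALS3BP on the ERG-labelled arrays against control (-0.25). With only the groups compared, SAMD9L turned to 0.37 against control and 0.22 against ETV1, read from another probe set. Leaving out 1 array, SAMD9L ranged from -0.97 to 0.37 against control and from -0.92 to 0.23 against ETV1, and EIF2AK2 from -0.29 to 0.48 against ETV1. Another probe set was read for SAMD9L, for IFI44 and, without 1 ERG-labelled array, for EIF2AK2, and for the rest the cause was not tested.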

Other observations

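Probe sets that the annotation gives to a member and to another gene were left out of every comparison. The one shared by IFITM2 and IFITM1 read 4439 to 5672 on the control, 8396 to 9019 on the ETV1 and 11407 to 13220.1 on the ERG-labelled arrays, so its groups did not overlap. The one shared by RNF31 and IRF9 read 409 to 514 on the control, 486.5 to 558 on the ETV1 and 250.2 to 255 on the ERG-labelled arrays, lowest where the brightest IRF9 probe set was highest.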
